A study of Caenorhabditis elegans with 15 samples.

Results

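The genes that build the contractile apparatus of the worm were followed as a group: thick and thin filaments of body wall muscle, the complexes that fasten these filaments to the cell membrane, and the myosins and troponins of the pharynx. Members were found by annotation, from a list of 45 gene symbols drawn up with earlier results of these data known. A gene was read when the array held at least 1 probe set annotated to it and to no other gene, which was so for 43 of the 45, among 17118 genes with a probe set of their own. Where a gene had several such probe sets, the one with the highest mean over the 15 arrays was used. The 43 genes comprised 7 thick filament genes, 3 giant sarcomere proteins, 12 thin filament genes, 12 attachment genes, 6 pharyngeal genes and 3 genes of calcium handling and muscle fate. The actin gene act-1 shared its probe sets with other actins. The dystrophin gene dys-1 was listed on its probe set under 2 gene records, so both are described apart.

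Whole-worm RNA was profiled on the Affymetrix C. elegans Genome Array in 5 groups of 3 arrays. N2 worms, the wild-type strain, were kept on vehicle (N2 controls), on rapamycin, an inhibitor of the TOR kinase, or on allantoin, a product of purine breakdown. Worms of the eat-2 mutant strain DA465 were kept on vehicle or on rapamycin, and no arrays of eat-2 worms on allantoin were analysed here. The gene eat-2 encodes a subunit of the nicotinic acetylcholine receptor that drives pharyngeal pumping, and its mutants eat little and serve as a model of caloric restriction. All groups shared 2% DMSO as the vehicle and were collected as adults after 72 h on the plates at 20 °C, counted from the L4 moult, and the records give no dose for either drug. The records do not say whether the 3 replicates of a group were separate cultures, so the p-values measure only the spread between these samples, which may be technical.

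The body wall muscle of C. elegans is obliquely striated and drives locomotion, whereas the pharynx is a separate muscular pump that draws in and grinds bacteria with its own set of myosins and troponins. In both, myosin heads on thick filaments pull on actin thin filaments once calcium binds troponin. Force leaves the body wall sarcomere through dense bodies and M-lines, integrin complexes that hold the filaments to the basement membrane. An array of whole worms reads all tissues together. A change in muscle RNA therefore cannot be told apart from a change in the share of RNA from other tissues.

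All 43 genes lay above 5.14, the log2 signal below which the dimmest 25% of probe sets fall. The N2 controls stood apart from the other groups by their spread. The median SD of the members was 0.44 among the 3 N2 controls, against 0.13 in rapamycin-treated N2 worms, 0.14 on allantoin, 0.12 in eat-2 controls and 0.28 in rapamycin-treated eat-2 worms. Over all probe sets the median SD was 0.21 in N2 controls and 0.0949 to 0.121 in the other groups. N2 control 2 was the highest of its group for 36 of the 43 genes, and N2 control 3 was the lowest for 28 of the 37 genes outside the pharynx. N2 control 1 was the lowest for all 6 pharyngeal genes. The signal of eat-2 itself lay between 5.19 and 5.77 in all 15 arrays, with an eat-2 minus N2 difference of -0.125 (adjusted p = 0.75, limma with Benjamini-Hochberg adjustment), so the transcript level did not check the mutation.

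Averaged over the 43 genes, the log2 signal was highest in rapamycin-treated N2 worms, with array means of 10.01, 10.28 and 10.22. The N2 controls gave 9.67, 10.11 and 9.40, so that control 2 lay among the rapamycin arrays. The allantoin arrays gave 9.44, 9.49 and 9.46, the eat-2 controls 9.47, 9.40 and 9.43, and the rapamycin-treated eat-2 arrays 9.36, 9.75 and 9.29. None of these 9 arrays reached the lowest rapamycin array of the wild type. By group mean, rapamycin-treated N2 worms held the highest value for 37 of the 43 genes, including 5 of the 6 pharyngeal genes. The lowest group mean belonged to eat-2 controls for 20 genes, none of them pharyngeal, and to allantoin-treated N2 worms for 9 genes, which included all 6 pharyngeal ones.

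**Figure D1:**
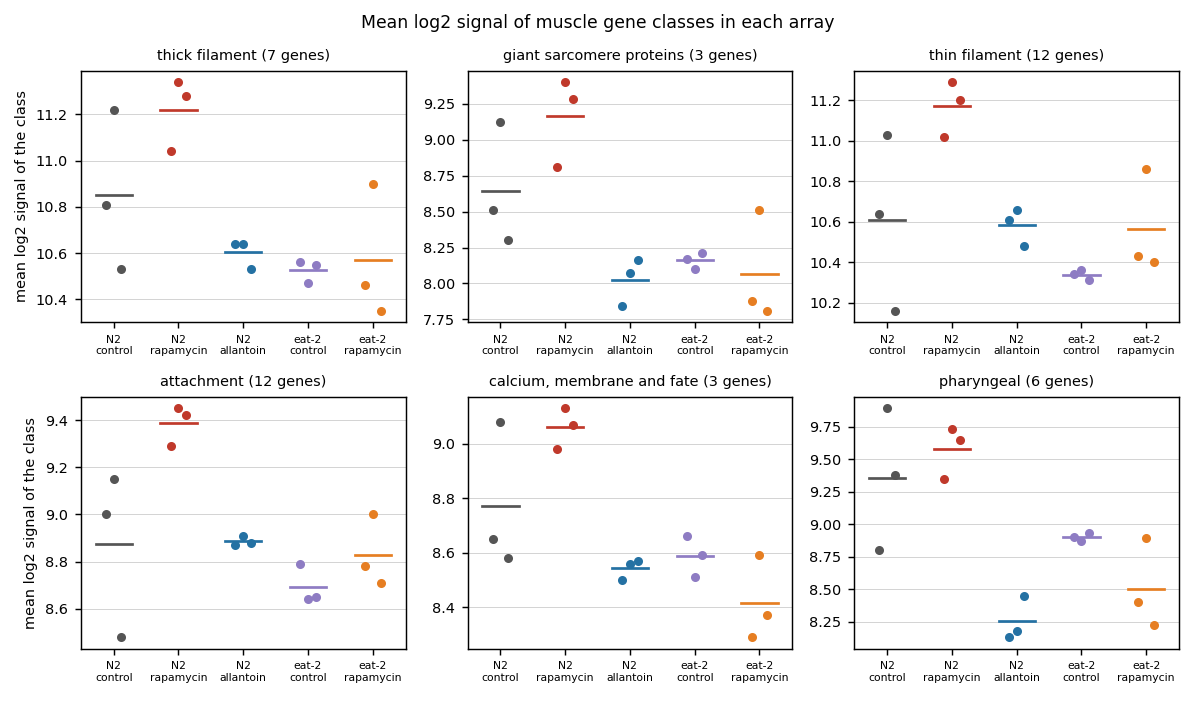
Mean log2 signal of each muscle gene class (y axis) in each of the 15 arrays (points), by group (x axis), with the group mean as a bar. Rapamycin-treated N2 worms had the highest group mean in all 6 classes, and the N2 controls were the most scattered. In the pharyngeal class allantoin had the lowest group mean, with arrays between 8.13 and 8.45 that overlapped those of rapamycin-treated eat-2 worms.

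The first comparison addresses how the 2 drugs differ within the wild type. Called below means an adjusted p under 0.05 in the limma fit over all 22548 probe sets tested. Between rapamycin-treated and allantoin-treated N2 worms, 32 of 43 muscle genes were higher on rapamycin and 2 were lower, while 27.8% of all probe sets were called higher and 33.5% lower. The median difference of the 43 genes was 0.73 on the log2 scale, against -0.0679 over all probe sets. The study's own threshold, which asks for more than a 2-fold change and an unadjusted p under 0.05, was met by 15 genes that were higher and 0 that were lower, beside 11.9% and 8.53% of all probe sets. The largest differences were those of the troponin I gene tni-1 (1.74 ± 0.14, SE, adjusted p = 1.13e-05) and of myo-3, the minor myosin heavy chain of body wall muscle (1.72 ± 0.22, adjusted p = 0.000158). The pharyngeal myosin myo-1 (1.63), the basement membrane perlecan unc-52 (1.57), the pharyngeal troponin T tnt-4 (1.56) and the pharyngeal troponin C tnc-2 (1.5) followed. The 2 genes lower on rapamycin were unc-45, a chaperone that folds myosin heads (-0.84 ± 0.092, adjusted p = 6.37e-05), and pat-3, the beta-integrin of the attachment complexes (-0.48 ± 0.078, adjusted p = 0.000642). The next lowest value, for the integrin-linked kinase pat-4, was -0.10 (adjusted p = 0.457).

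Within this comparison all 6 pharyngeal genes and all 3 giant sarcomere genes were called higher on rapamycin. So were 5 of 7 thick filament genes, 9 of 12 attachment genes, 7 of 12 thin filament genes and 2 of 3 of the calcium and fate class. The other 9 genes were not called in either direction, the main myosin heavy chain gene unc-54 among them (0.40 ± 0.17, adjusted p = 0.0757). Leaving out each of the 6 arrays in turn gave 32 to 34 called genes, while 54.4% to 60% of all probe sets were called. With each array centred on its median, which moved the median of all probe sets by -0.2, 26 muscle genes were higher and 4 lower, beside 21.9% and 53.3% of all probe sets.

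The same rapamycin arrays of the wild type also entered the comparison of the strains on rapamycin, so its values are given beside, and not as a repeat of, those above. In rapamycin-treated eat-2 worms 33 muscle genes were lower than in rapamycin-treated N2 worms and 2 were higher, while 25.8% of all probe sets were lower and 32.1% higher. The median difference, eat-2 minus N2, was -0.78 over the members and 0.0985 over all probe sets. At the study's threshold 14 genes were lower and 0 higher, beside 11.2% and 7.55% of all probe sets. The largest differences were in tni-1 (-1.68 ± 0.24, adjusted p = 0.000558), myo-3 (-1.56 ± 0.29, adjusted p = 0.00222), myo-1 (-1.54), the troponin T gene tnt-3 (-1.37), the pharyngeal myosin myo-2 (-1.34) and the twitchin gene unc-22 (-1.23). Higher in eat-2 worms were unc-45 (0.74 ± 0.097, adjusted p = 0.000331) and pat-3 (0.41 ± 0.085, adjusted p = 0.00403). The remaining positive value was that of the troponin I gene tni-3, 0.04 (adjusted p = 0.835).

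By class, the 33 lower genes were 5 of 7 thick filament, 3 of 3 giant, 9 of 12 thin filament, 8 of 12 attachment, 5 of 6 pharyngeal and 3 of 3 calcium and fate genes. The pharyngeal gene that was not called was the myosin myo-5 (-0.25, adjusted p = 0.287). Leaving out single arrays gave 31 to 39 called genes, while 49.4% to 58.3% of all probe sets were called. Median centring moved the median of all probe sets by 0.23 and left 25 genes lower and 2 higher, beside 19.6% and 56.5% of all probe sets.

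**Figure D2:**
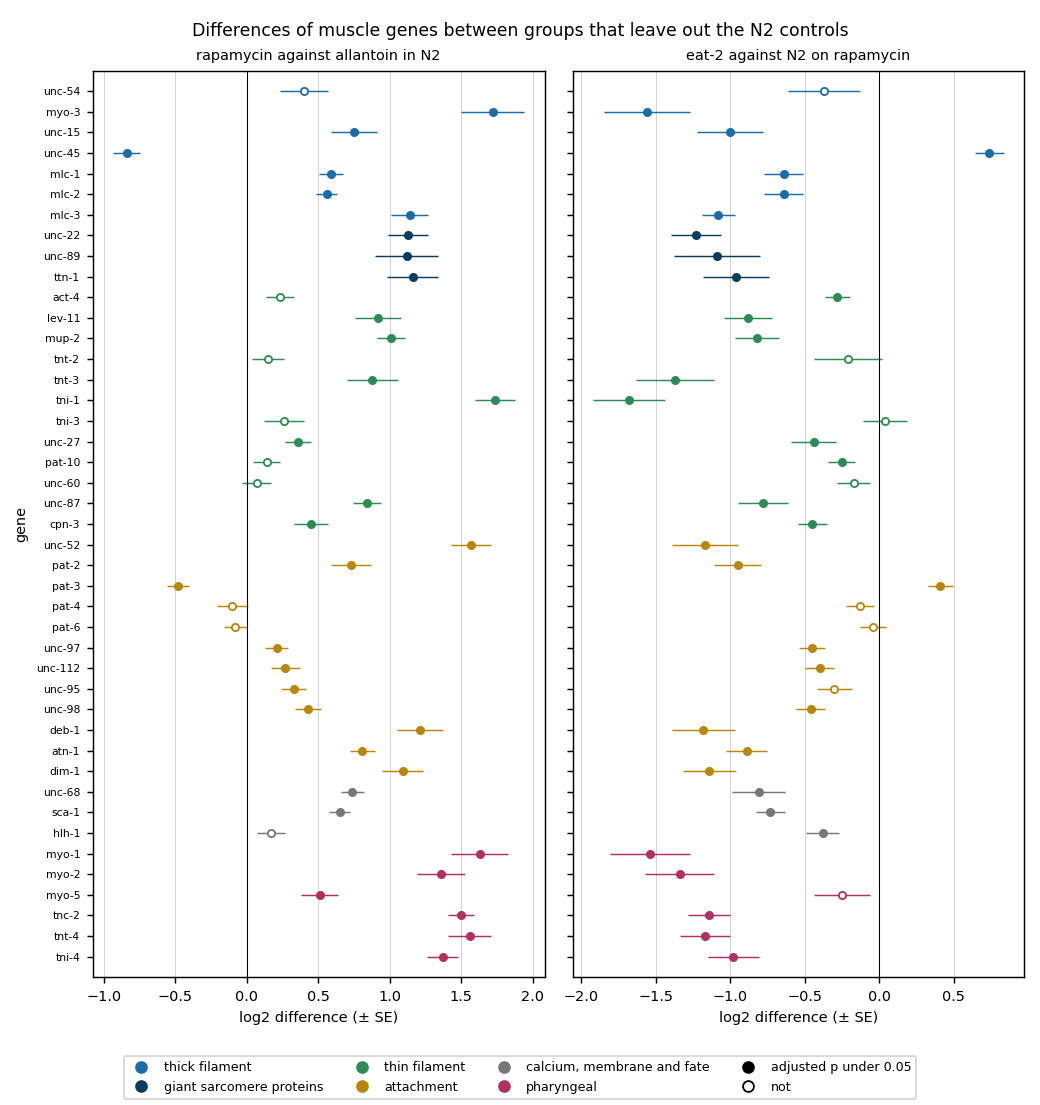
Log2 differences of the 43 muscle genes (x axis, bars are SE of the limma fit) between rapamycin and allantoin in N2 worms (left) and between eat-2 and N2 worms on rapamycin (right), with genes on the y axis coloured by class and filled where the adjusted p is under 0.05. Both panels use the same 3 rapamycin arrays of N2 worms: 32 genes lie to the right and filled in the left panel, 33 to the left and filled in the right panel, and unc-45 and pat-3 lie on the other side in each.

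Against the N2 controls, rapamycin gave fewer calls. Only unc-52 was called higher (1.52 ± 0.32, adjusted p = 0.0414) and only unc-45 lower (-0.65 ± 0.11, adjusted p = 0.0293) of the 43, while 5.71% of all probe sets were higher and 3.67% lower. The median difference was 0.43 and 39 of 43 genes had a positive value. By unadjusted p under 0.05, 16 of 43 genes passed beside 32.7% of all probe sets. Those above the study's threshold were unc-52, dim-1, an immunoglobulin-repeat protein of the attachment sites (1.25, adjusted p = 0.0736), and tni-1 (1.21, adjusted p = 0.103), 3 of 43 genes beside 5.15% of all probe sets. The rapamycin arrays all lay above the controls for 13 of 43 genes, beside 19.1% of all probe sets. After unc-45, the lowest values were those of myo-5 (-0.28, adjusted p = 0.479) and of pat-6, the parvin of the integrin complex (-0.21, adjusted p = 0.17).

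This count rested on single libraries. Without N2 control 2, whose muscle signals were the highest of the controls, 17 genes were called higher and 1 lower, while 14.9% and 15.6% of all probe sets were. Without any 1 of the rapamycin arrays the count was 0, beside 0% to 0.452% of all probe sets, and without N2 control 3 it was 1, beside 1.44%. The adjusted p of both unc-52 and unc-45 was 0.0641 with the replicate number as a block, where 0.692% of all probe sets were called.

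Between allantoin and the N2 controls, 0 of 43 muscle genes were called, as were 0% of all probe sets. By unadjusted p under 0.05, 11 of 43 genes passed beside 19.8% of all probe sets, and at the study's threshold 6 genes were lower beside 3.16% of all probe sets. These 6 were myo-3 and 5 of the 6 pharyngeal genes. The differences of the pharyngeal genes ran from -1.35 (myo-1) to -0.78 (myo-5), all with an adjusted p of 0.236, and their 3 allantoin arrays all lay below the 3 controls for 6 of 6 genes. Of all 43 genes this was so for 11, beside 12.7% of all probe sets. It was also so for 8 of 12 neuronal markers (median difference -0.51), 5 of 7 sperm markers (median -1.89), 4 of 10 intestinal markers (median -0.27) and 0 of 10 epidermal markers. For 7 of 13 germline and oocyte markers the allantoin arrays all lay above the controls (median 0.42), beside 16.2% of all probe sets. The part of other tissues in the pharyngeal values was not tested. The 37 other muscle genes had a median difference of -0.07. The lowest values were those of myo-1, myo-2 (-1.17) and tnc-2 (-1.14), and the highest those of unc-27, a troponin I gene of body wall muscle (0.49, adjusted p = 0.478), tnt-2, a troponin T gene (0.43, adjusted p = 0.562), and pat-4 (0.30, adjusted p = 0.33). Without N2 control 1, the lowest control for the pharyngeal genes, 8 genes were called lower and 1 higher, while 11.1% and 9.33% of all probe sets were. The 8 were the 6 pharyngeal genes, myo-3 and the calcium pump gene sca-1, and the other was pat-3.

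The eat-2 mutation was compared with the wild type on vehicle. Of the 43 genes 0 were called, and of all probe sets 0.0399%. By unadjusted p under 0.05, 2 of 43 genes passed beside 7.59% of all probe sets, and the lowest adjusted p was 0.532. The median difference was -0.34 and 33 of 43 values were negative. The eat-2 arrays all lay below the N2 controls for 3 of 43 genes, beside 5.16% of all probe sets. These were unc-22, unc-89 and lev-11. The lowest values were -0.64 for both unc-22 and the regulatory myosin light chain mlc-1 and -0.61 for both tnc-2 and tni-1, and the highest were 0.19 for pat-3, 0.15 for unc-98 and 0.14 for tni-3.

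In eat-2 worms, rapamycin against vehicle gave 4 of 43 genes higher and 1 lower, beside 6.8% and 7.03% of all probe sets. The 4 were unc-27 (0.97 ± 0.16, adjusted p = 0.0121), dim-1 (0.64 ± 0.16, adjusted p = 0.0446), mlc-1 (0.60 ± 0.14, adjusted p = 0.0386) and unc-95, a LIM-domain protein of the dense bodies (0.53 ± 0.12, adjusted p = 0.0317). The gene called lower was sca-1 (-0.58 ± 0.10, adjusted p = 0.0155). The lowest values were not called and were those of myo-3 (-0.93, adjusted p = 0.0766), myo-1 (-0.73, adjusted p = 0.0867) and myo-2 (-0.72, adjusted p = 0.0626). High values that were not called were those of tnt-2 (0.90, adjusted p = 0.0553) and unc-52 (0.79, adjusted p = 0.0575). All 6 pharyngeal genes had negative values, from -0.73 to -0.16. The rapamycin arrays all lay above the eat-2 controls for 10 of 13 germline and oocyte markers (median 0.35), beside 20% of all probe sets. They all lay below for 4 of 7 sperm markers (median -1.01) and 3 of 12 neuronal markers (median -0.08), beside 16.6%. For the intestine 2 of 10 markers lay above and 1 below, and for the epidermis 3 of 10 above and 0 below. The part of other tissues in the muscle values was not tested. Over the 43 genes the median was 0.04, and 15 genes had an unadjusted p under 0.05, beside 29.9% of all probe sets. With median centring 7 genes were higher and 1 lower, beside 11.6% and 5.74% of all probe sets. Leaving out rapamycin-treated eat-2 array 2, the highest of its group in muscle signal, gave 5 genes higher and 7 lower, beside 7.21% and 7.11% of all probe sets. The call of unc-27 was kept without any 1 of the 6 arrays, and the count of genes called was 1 without eat-2 control 1, eat-2 control 3 or rapamycin-treated eat-2 array 1, and 3 without eat-2 control 2. In these 4 fits 4.45% to 13.4% of all probe sets were called.

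The difference between the strains in their response to rapamycin was tested as an interaction over 12 arrays, with the response in eat-2 worms minus that in N2 worms as its value. Of the 43 genes 1 was called higher and 3 lower, beside 12.1% and 12.4% of all probe sets. The values were 0.79 for unc-45 (adjusted p = 0.00939), -1.57 for myo-3 (adjusted p = 0.0381), -0.76 for sca-1 (adjusted p = 0.0122) and -0.61 for unc-98, a zinc finger protein of the M-lines (adjusted p = 0.0352). The highest values after unc-45 were 0.32 for tnt-2 and 0.21 for pat-3, with adjusted p of 0.69 and 0.473. Median centring moved the median of all probe sets by 0.18 and gave 1 gene higher and 2 lower, beside 21.6% and 9.28% of all probe sets. Without N2 control 2, 14 genes were called lower and 1 higher, beside 18.7% and 19% of all probe sets. The count was 2, with 14.5% to 21.2% of all probe sets called, without N2 control 1, N2 control 3, N2 rapamycin array 2 or 3, eat-2 control 1, or rapamycin-treated eat-2 array 1 or 3.

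**Figure D3:**
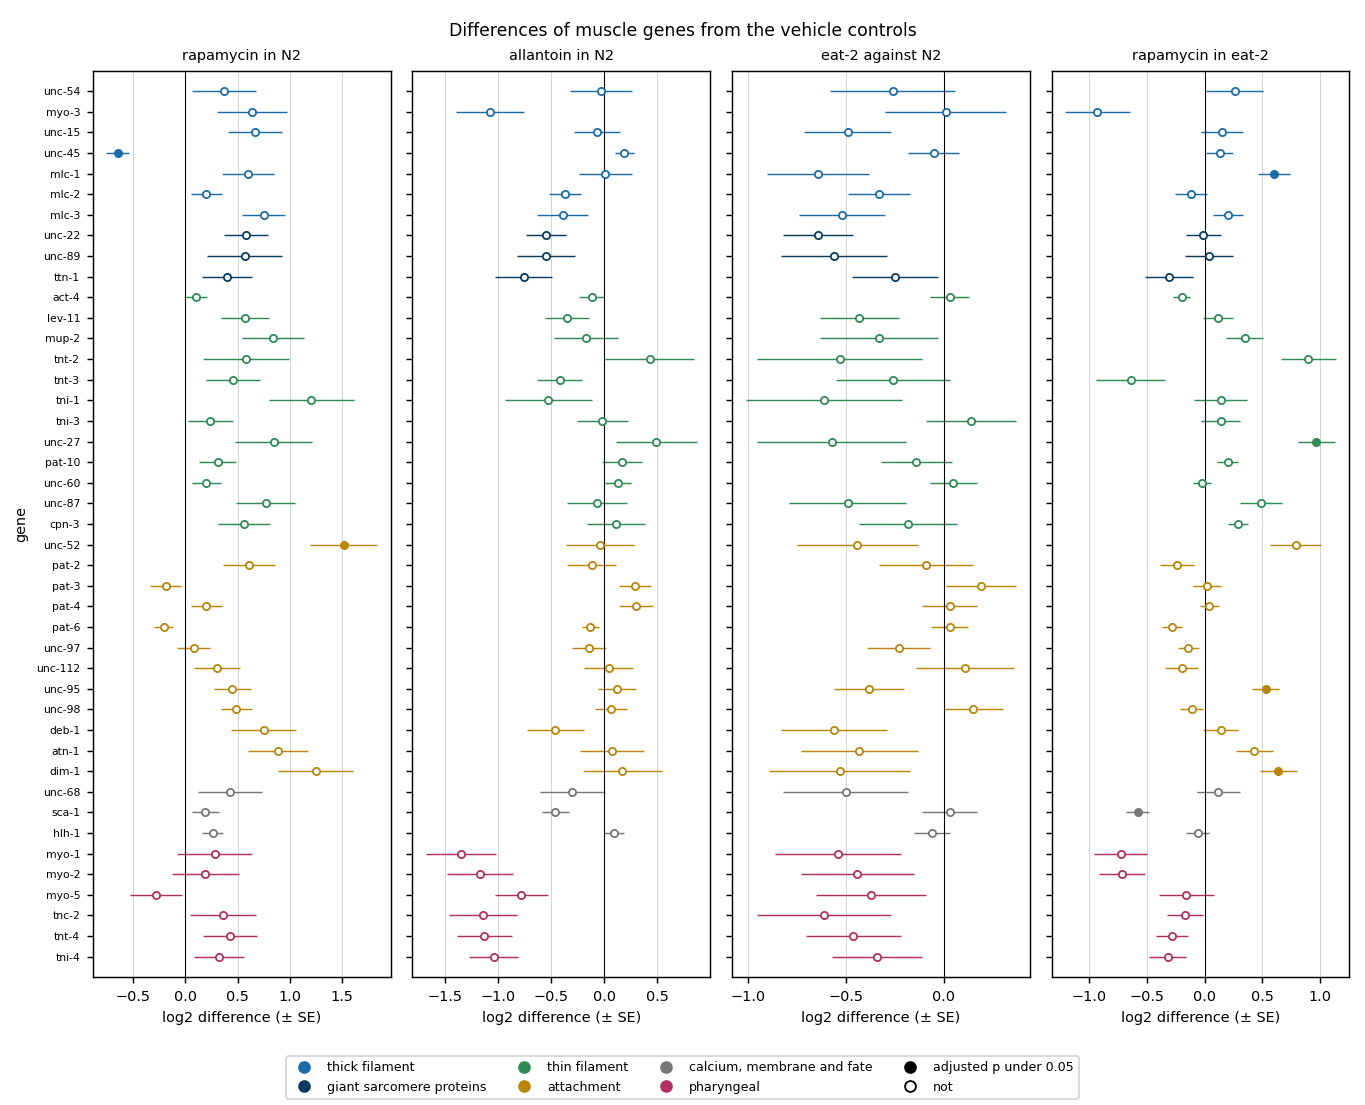
Log2 differences of the 43 muscle genes (x axis, bars are SE of the limma fit) in the 4 comparisons with a vehicle group or of the 2 vehicle groups, with genes on the y axis coloured by class and filled where the adjusted p is under 0.05. The first 3 panels share the N2 controls, and the last 2 the eat-2 controls. Filled points are unc-52 and unc-45 on the left and unc-27, dim-1, mlc-1, unc-95 and sca-1 on the right, and the 6 pharyngeal genes on allantoin lie between -1.35 and -0.78.

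In the thick filament class, the myosin heavy chains of body wall muscle differed in their calls. The signals of myo-3, whose product lies at the centre of the thick filament, were 8.03, 9.14 and 8.27 in N2 controls, 8.71, 9.51 and 9.15 on rapamycin, and 7.39, 7.09 and 7.74 on allantoin. They were 8.59, 8.17 and 8.72 in eat-2 controls and 7.26, 8.20 and 7.23 in rapamycin-treated eat-2 worms. The allantoin arrays thus lay below all N2 controls, and the treated eat-2 arrays overlapped their controls through array 2. The signals of unc-54, the main heavy chain, were 9.91, 10.20 and 9.10 in N2 controls, 9.75, 10.16 and 10.41 on rapamycin, 9.85, 9.81 and 9.47 on allantoin, 9.65, 9.10 and 9.67 in eat-2 controls, and 9.52, 10.25 and 9.42 in rapamycin-treated eat-2 worms. The groups overlapped in each comparison of 2 groups, and unc-54 was called in none of the 7 tests.

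Paramyosin, the core protein of invertebrate thick filaments, is encoded by unc-15. Its signals were 11.85, 12.11 and 11.29 in N2 controls, 12.10, 12.74 and 12.43 on rapamycin and 11.78, 11.75 and 11.50 on allantoin. They were 11.23, 11.17 and 11.40 in eat-2 controls and 11.31, 11.83 and 11.12 in rapamycin-treated eat-2 worms. All rapamycin arrays of the wild type lay above both the allantoin arrays (0.75, adjusted p = 0.0033) and the treated eat-2 arrays (eat-2 minus N2 -1.0, adjusted p = 0.00452). The light chains mlc-1, mlc-2 and mlc-3 were likewise called in both of these comparisons, with rapamycin minus allantoin differences of 0.59, 0.56 and 1.14 and eat-2 minus N2 differences of -0.64, -0.64 and -1.08. The essential light chain mlc-3 had rapamycin arrays at 12.89, 12.93 and 12.78, above all other arrays, of which N2 control 2 was the highest at 12.55.

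On the probe set used, the myosin chaperone unc-45 went the other way. Its signals were 7.73, 7.73 and 7.95 in rapamycin-treated N2 worms. They were 8.49, 8.37 and 8.5 in N2 controls, 8.61, 8.72 and 8.60 on allantoin, 8.67, 8.33 and 8.24 in eat-2 controls and 8.62, 8.54 and 8.48 in rapamycin-treated eat-2 worms. The 3 rapamycin arrays of the wild type thus lay below the 12 others. In eat-2 worms rapamycin gave a difference of 0.13 (adjusted p = 0.515). The other probe set of unc-45 had the same signs but smaller values. It gave -0.0526 for rapamycin against the N2 controls, where the one used gave -0.654. Between rapamycin and allantoin it gave -0.215 beside -0.839, and between the strains on rapamycin 0.172 beside 0.742. In C. elegans unc-45 is expressed in the germline and embryo as well as in muscle. On rapamycin, 5 of 13 germline and oocyte markers were called lower than in N2 controls (median -0.76), beside 3.67% of all probe sets. The part of the germline in the value of unc-45 was not tested.

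The giant proteins twitchin (unc-22), obscurin (unc-89) and the titin-like ttn-1 are elastic or signalling proteins of the sarcomere. The signals of unc-22 were 7.97, 8.20 and 7.54 in N2 controls, 8.20, 8.56 and 8.70 on rapamycin, 7.21, 7.29 and 7.55 on allantoin, 7.25, 7.16 and 7.38 in eat-2 controls and 7.09, 7.58 and 7.1 in rapamycin-treated eat-2 worms. Rapamycin array 1 and N2 control 2 both read 8.20, and the rapamycin arrays of the wild type lay above the 9 arrays of the remaining groups. On the probe sets used, the 3 genes gave 1.13, 1.12 and 1.16 between rapamycin and allantoin and -1.23, -1.09 and -0.96 between the strains on rapamycin. Their other probe sets gave smaller values: the second of unc-22, with a mean of 7.592 beside 7.652, gave 0.195 (adjusted p = 0.208) and -0.427 (adjusted p = 0.127), and between the drugs the lowest were 0.11 for unc-89 and -0.238 for ttn-1, both on probe sets with a mean below 5.14.

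Among thin filament genes, tropomyosin (lev-11) covers the myosin sites of actin, and troponins T, I and C move it when calcium arrives. The signals of lev-11 were 9.66, 10.28 and 9.63 in N2 controls, 10.12, 10.56 and 10.62 on rapamycin, 9.60, 9.68 and 9.26 on allantoin, 9.30, 9.53 and 9.46 in eat-2 controls and 9.46, 9.81 and 9.39 in rapamycin-treated eat-2 worms. Those of mup-2, a troponin T gene, were 10.59, 11.08 and 9.87 in N2 controls, 11.20, 11.47 and 11.41 on rapamycin, 10.24, 10.42 and 10.39 on allantoin, 10.06, 10.35 and 10.16 in eat-2 controls and 10.36, 10.88 and 10.38 in treated eat-2 worms. For mup-2 the rapamycin arrays of the wild type lay above all 12 others, and for lev-11 N2 control 2 overlapped them.

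The troponin I genes were not called alike. The signals of tni-1 were 9.24, 10.26 and 8.59 in N2 controls, 10.37, 10.82 and 10.51 on rapamycin, 8.66, 8.78 and 9.05 on allantoin, 8.76, 8.69 and 8.80 in eat-2 controls and 8.60, 9.47 and 8.60 in treated eat-2 worms. All rapamycin arrays of the wild type lay above the other 12. The signals of unc-27 were 11.37, 11.35 and 9.99 in N2 controls, 11.71, 11.78 and 11.75 on rapamycin, 11.46, 11.48 and 11.24 on allantoin, 10.29, 10.29 and 10.42 in eat-2 controls and 11.16, 11.67 and 11.09 in treated eat-2 worms. In eat-2 worms all unc-27 arrays on rapamycin lay above the vehicle arrays, which stood between N2 control 3 and the other N2 controls. For tni-3 no test reached an adjusted p under 0.05, and its differences ran from -0.10 to 0.26.

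Actin, the thin filament itself, had few calls. The signals of act-4, an actin expressed in body wall muscle, were 13.20, 13.22 and 12.98 in N2 controls, 13.17, 13.30 and 13.25 on rapamycin, 13.10, 13.10 and 12.83 on allantoin, 13.21, 13.17 and 13.10 in eat-2 controls and 13, 12.99 and 12.88 in treated eat-2 worms. It was lower in eat-2 than in N2 worms on rapamycin (-0.28, adjusted p = 0.0212) and was not called elsewhere. The 3 probe sets that read act-1 together with act-2 and act-3, 1 of them also with act-4, lay between 13.19 and 13.77 in all arrays, and their differences ran from -0.133 to 0.0643 with adjusted p of 0.209 or more.

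Of the other thin filament genes, the troponin C gene pat-10 was called only between the strains on rapamycin (-0.25, adjusted p = 0.046). The calponin-related genes unc-87 and cpn-3 were higher on rapamycin than on allantoin (0.84 and 0.45) and lower in eat-2 than in N2 worms on rapamycin (-0.78 and -0.45). The troponin T genes split: tnt-3 was called in both comparisons (0.88 and -1.37), and tnt-2 in none of the 7 tests. The signals of tnt-2 were 9.58, 10.03 and 8.35 in N2 controls, so that control 3 alone lowered that group. The actin-severing factor unc-60 (ADF/cofilin) had no call on the probe set used.

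Among attachment genes, unc-52 was the 1 gene called higher between rapamycin and the N2 controls, with 1.52 on the probe set used, whose suffix marks possible cross-hybridisation, and 0.884 (adjusted p = 0.0491) and 0.669 (adjusted p = 0.0625) on its others. Its signals were 8.45, 8.62 and 7.46 in N2 controls and 9.47, 9.92 and 9.70 on rapamycin. They were 7.95, 8.08 and 8.37 on allantoin, 7.86, 7.65 and 7.69 in eat-2 controls and 8.5, 9.0 and 8.09 in treated eat-2 worms. The rapamycin arrays of both strains lay above their own vehicle arrays, with a difference in eat-2 worms of 0.79 (adjusted p = 0.0575). The interaction was -0.73 (adjusted p = 0.225).

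The vinculin gene deb-1 and the alpha-actinin gene atn-1 encode the body of the dense bodies. The signals of deb-1 were 9.49, 9.92 and 8.84 in N2 controls, 9.78, 10.45 and 10.29 on rapamycin, 8.91, 8.98 and 8.99 on allantoin, 8.90, 8.84 and 8.82 in eat-2 controls and 8.87, 9.35 and 8.77 in treated eat-2 worms. Those of atn-1 were 9.04, 9.58 and 8.37 in N2 controls, 9.82, 9.85 and 9.98 on rapamycin, 9.01, 9.03 and 9.17 on allantoin, 8.73, 8.58 and 8.39 in eat-2 controls and 8.87, 9.32 and 8.80 in treated eat-2 worms. For atn-1 the rapamycin arrays of the wild type lay above all others, and for deb-1 only N2 control 2 overlapped them.

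In the core integrin complex calls ran in both directions. The alpha-integrin gene pat-2 was higher on rapamycin than on allantoin (0.73, adjusted p = 0.00178) and lower in eat-2 than in N2 worms on rapamycin (-0.95, adjusted p = 0.00149). Its partner pat-3, which other tissues also express, had the opposite sign in both, with signals of 10.72, 10.84 and 10.84 in rapamycin-treated N2 worms, 11.29, 11.26 and 11.30 on allantoin and 11.20, 11.27 and 11.14 in treated eat-2 worms. The N2 controls at 11.30, 10.80 and 10.87 and the eat-2 controls at 11.34, 10.94 and 11.28 spanned most of that range. With cyclic loess scaling pat-3 was no longer called in either comparison (-0.19, adjusted p = 0.0674, and 0.17, adjusted p = 0.124). The scaffold genes pat-4 and pat-6 were called in none of the 7 tests. The PINCH gene unc-97 and the kindlin gene unc-112 were called between the drugs (0.21, adjusted p = 0.0444, and 0.27, adjusted p = 0.0439) and between the strains on rapamycin (-0.45 and -0.40).

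In the calcium and fate class, the ryanodine receptor gene unc-68 releases calcium from the sarcoplasmic reticulum and sca-1, the SERCA pump, returns it. The signals of unc-68 were 9.0, 9.81 and 8.55 in N2 controls, 9.47, 9.57 and 9.62 on rapamycin, 8.79, 8.77 and 8.89 on allantoin, 8.79, 8.57 and 8.5 in eat-2 controls and 8.52, 9.19 and 8.52 in treated eat-2 worms. Those of sca-1 were 11.37, 11.80 and 11.69 in N2 controls, 11.77, 11.86 and 11.77 on rapamycin, 11.13, 11.15 and 11.19 on allantoin, 11.70, 11.55 and 11.69 in eat-2 controls and 10.98, 11.26 and 10.98 in treated eat-2 worms. For sca-1 the allantoin arrays and the treated eat-2 arrays both lay below all arrays of the other 3 groups.

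The myogenic factor hlh-1, the MyoD homologue, was faint, between 5.34 and 5.95 over the 15 arrays. Its signals were 5.57, 5.63 and 5.49 in N2 controls, 5.71, 5.95 and 5.81 on rapamycin, 5.57, 5.77 and 5.61 on allantoin, 5.51, 5.42 and 5.58 in eat-2 controls and 5.38, 5.34 and 5.62 in treated eat-2 worms. It was called only between the strains on rapamycin (-0.38, adjusted p = 0.0192). The probe set of dys-1, dystrophin, which links actin to the membrane, gave 8.36, 8.51 and 8.05 in N2 controls, 8.36, 8.30 and 8.33 on rapamycin, 8.11, 8.27 and 8.36 on allantoin, 8.54, 8.15 and 8.25 in eat-2 controls and 7.99, 8.09 and 8.09 in treated eat-2 worms. It was lower in eat-2 than in N2 worms on rapamycin (-0.27, adjusted p = 0.02) and not called elsewhere.

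For 5 of the 6 pharyngeal genes, all but myo-5, the group means ran in the same order, from N2 on rapamycin at the top through N2 controls, eat-2 controls and treated eat-2 worms to N2 on allantoin. Neighbours in that order mostly overlapped. The pharyngeal heavy chain myo-1 gave 9.97, 11.24 and 10.54 in N2 controls, 10.41, 11.22 and 10.95 on rapamycin, 9.08, 9.11 and 9.50 on allantoin, 10.03, 9.84 and 10.26 in eat-2 controls and 9.13, 9.84 and 8.97 in treated eat-2 worms. The heavy chain myo-2, expressed only in pharyngeal muscle, gave 7.66, 8.84 and 8.26, then 8.10, 8.66 and 8.57 on rapamycin, 6.85, 7.08 and 7.32 on allantoin, 7.75, 7.82 and 7.89 in eat-2 controls and 6.94, 7.59 and 6.77 in treated eat-2 worms. For both genes the allantoin arrays lay below all N2 controls and all eat-2 controls, while the rapamycin arrays lay within the range of the N2 controls.

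The pharyngeal troponins make the pump respond to calcium. Troponin C, tnc-2, gave 10, 11.33 and 10.74 in N2 controls, 11.18, 10.99 and 10.99 on rapamycin, 9.46, 9.52 and 9.66 on allantoin, 9.89, 10.29 and 10.06 in eat-2 controls and 10, 10.12 and 9.62 in treated eat-2 worms. Troponin T, tnt-4, gave 8.64, 9.60 and 9.16 in N2 controls, 9.31, 9.81 and 9.57 on rapamycin, 7.85, 7.90 and 8.26 on allantoin, 8.66, 8.59 and 8.76 in eat-2 controls and 8.28, 8.71 and 8.18 in treated eat-2 worms. Troponin I, tni-4, gave 9.56, 10.44 and 10.21, then 10.18, 10.46 and 10.54 on rapamycin, 8.97, 8.99 and 9.12 on allantoin, 9.64, 9.89 and 9.67 in eat-2 controls and 9.31, 9.77 and 9.17 in treated eat-2 worms. Again the allantoin arrays lay below every N2 control and every eat-2 control, and N2 control 2 lay above N2 controls 1 and 3. For myo-5 the differences were smaller, with 0.51 between rapamycin and allantoin (adjusted p = 0.00715) the only one called.

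**Figure D4:**
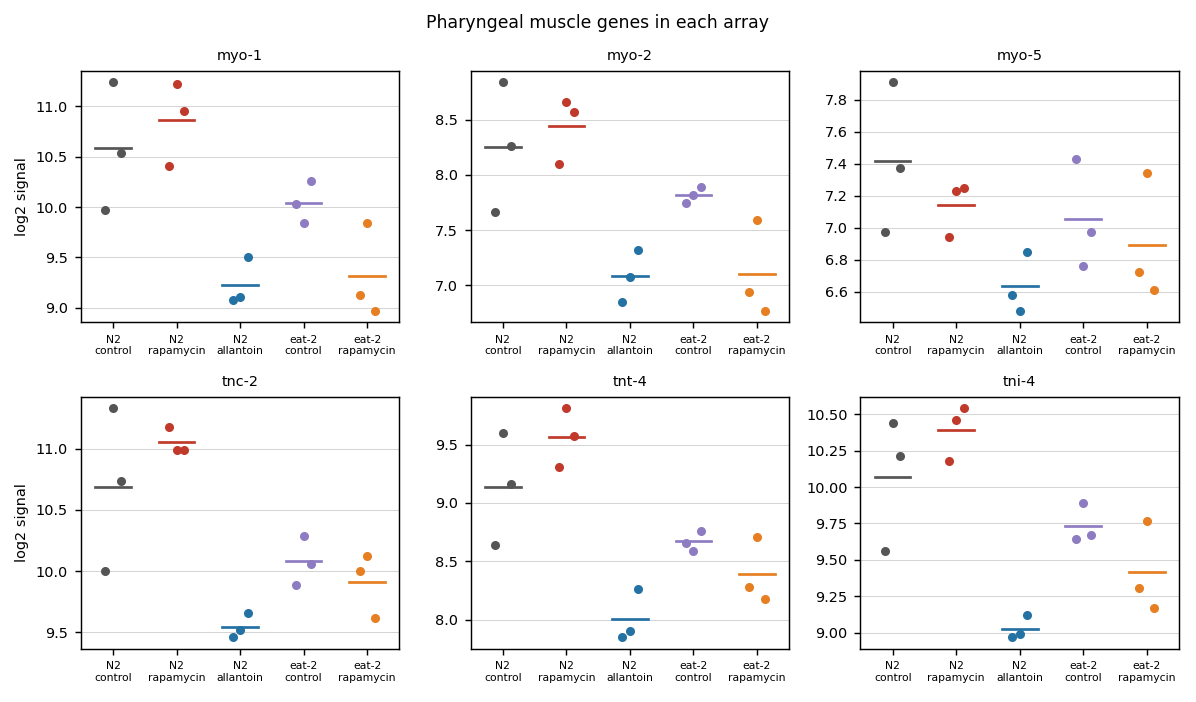
Log2 signal (y axis) of the 6 pharyngeal muscle genes in each of the 15 arrays (points), by group (x axis), with the group mean as a bar. The 3 allantoin arrays lie below the 3 N2 controls in all 6 panels, and the N2 controls spread widely, from 9.97 to 11.24 for myo-1.

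The mean signal of the pharyngeal genes minus that of the 37 other muscle genes, taken within each array, describes how far the 2 gene lists went together. Whether the 37 are also expressed in the pharynx was not tested. It was -1.0, -0.25 and -0.03 in N2 controls, -0.77, -0.64 and -0.66 on rapamycin, -1.53, -1.53 and -1.18 on allantoin, -0.67, -0.62 and -0.57 in eat-2 controls and -1.12, -0.99 and -1.25 in treated eat-2 worms. The allantoin arrays were lower than those of all other groups except for an overlap with treated eat-2 worms, whose array 3 lay at -1.25. The N2 controls had the widest spread of the 5 groups.

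Several probe sets of a gene did not always give the same value. Of the 43 genes, 23 had more than 1, and the probe set used carried a suffix marking probes shared by transcripts or open to cross-hybridisation for 26, of which 6 (mlc-2, lev-11, unc-60, unc-87, unc-52 and unc-112) had the suffix for possible cross-hybridisation. Between rapamycin and allantoin, unc-89, ttn-1, lev-11, unc-60, unc-68 and sca-1 had a probe set that differed by more than 1 from the one used. For unc-60, which gives rise to a muscle and a non-muscle cofilin by splicing, the probe set used gave 0.0679 and another 1.12 (adjusted p = 9.5e-05), and the files do not say which product each reads. For unc-68, probe sets gave 0.735, 0.436 and -0.466, all called, and for sca-1 they gave 0.881 and 0.646 called higher and -0.436 called lower. Between the strains on rapamycin, those of unc-68 gave -0.81, -0.474 and 0.41, all called, those of sca-1 ran from -0.904 to 0.283 and those of ttn-1 from -0.961 to 0.18. In rapamycin-treated eat-2 worms against their controls, those of unc-52 ran from -0.318 to 0.793.

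Further muscle genes were read from 2 lists. Of 21 genes of excitation and calcium entry, 17 were higher and 1 lower on rapamycin than on allantoin, with a median of 0.67, and 13 were lower and 1 higher in eat-2 than in N2 worms on rapamycin, with a median of -0.54. Of all probe sets 27.8% were higher and 33.5% lower in the first comparison, and 25.8% were lower and 32.1% higher in the second. Genes of these lists are named here with their values already known. The junctophilin gene jph-1 gave 1.49 and -1.48, the GABA receptor gene unc-49 gave 1.15 and -0.96 and the acetylcholine receptor subunit lev-1 gave 1.03 and -0.86, all called. The gene with the opposite direction in both was acr-16, a nicotinic receptor subunit (-1.32 and 1.00). Of 29 genes measured for sarcomere upkeep and the matrix, 12 were higher and 5 lower on rapamycin than on allantoin (median 0.10), and 12 were lower and 4 higher in eat-2 than in N2 worms on rapamycin (median -0.14). The kinase unc-82 (1.52 and -1.18), the LIM protein lim-9 (1.51 and -1.17), uig-1, an exchange factor at dense bodies (1.24 and -0.92), and the zyxin zyx-1 (1.17 and -0.89) were among them. The 5 lower on rapamycin than on allantoin were the laminin genes lam-3 (-0.86) and lam-1 (-0.38), git-1 (-0.69), the nidogen nid-1 (-0.62) and the transporter snf-6 (-0.32). In eat-2 worms on rapamycin against vehicle, 5 of the 29 were lower, beside 7.03% of all probe sets, among them lam-3 (-1.26, adjusted p = 0.0415) and the talin gene tln-1 (-0.86, adjusted p = 0.00516). Against the N2 controls 2 and 1 genes of these lists were higher on rapamycin, beside 5.71% of all probe sets, and 0 were called for allantoin or for eat-2.

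Marker genes of other tissues moved in the same comparisons. Between rapamycin and allantoin, 10 of 12 neuronal markers were higher and 1 lower (median 1.11), 7 of 10 epidermal markers were higher and 3 lower, 6 of 7 sperm markers were higher (median 3.03), and 12 of 13 germline and oocyte markers were lower (median -1.13). Between eat-2 and N2 worms on rapamycin, 9 neuronal, 6 epidermal and 6 sperm markers were lower, 1 neuronal and 2 epidermal markers were higher, and 12 germline and oocyte markers were higher. Intestinal markers split, with 6 of 10 higher and 3 lower in each of these comparisons. Among the 7 higher epidermal markers, the collagens dpy-7 and rol-6 had group means of 9.4 and 10.32 on rapamycin and 6.92 and 7.34 on allantoin. The 3 lower ones were the collagen col-19 (8.47 and 9.77), elt-1 (7.09 and 7.8) and lin-26 (10.1 and 10.72). Over all probe sets 27.8% were higher and 33.5% lower in the first comparison, and 32.1% higher and 25.8% lower in the second.

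By array, the mean of the germline and oocyte markers was 11.17 to 11.25 in rapamycin-treated N2 worms, 12.24 to 12.31 on allantoin, 11.49 to 12.12 in N2 controls, 11.75 to 12.04 in eat-2 controls and 12.22 to 12.24 in treated eat-2 worms. That of the sperm markers was 8.52 to 8.87, 5.67 to 6.23, 6.43 to 7.96, 6.16 to 7.30 and 5.65 to 5.92 in the same order. The neuronal markers lay at 8.95 to 9.03 in rapamycin-treated N2 worms, 8.38 to 8.91 in N2 controls, 8.07 to 8.19 on allantoin, 8.31 to 8.43 in eat-2 controls and 8.14 to 8.42 in treated eat-2 worms. N2 control 2, the highest control for most muscle genes, was also the highest for neurons (8.91), epidermis (9.23), intestine (10.71) and sperm (7.96) and the lowest for the germline (11.49). Of the markers, eat-4 in the 3 N2 groups, spe-38 in all groups but N2 on rapamycin, and spe-11 on allantoin and in treated eat-2 worms had a group mean below 5.14. The parts that the make-up of tissues and the developmental stage of the worms had in the muscle values were not tested. Of 7 non-muscle actin and myosin genes, 3 were higher and 1 lower on rapamycin than on allantoin (median 0.07), beside 27.8% and 33.5% of all probe sets. The unconventional myosin hum-6 gave the largest value (1.52).

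**Figure D5:**
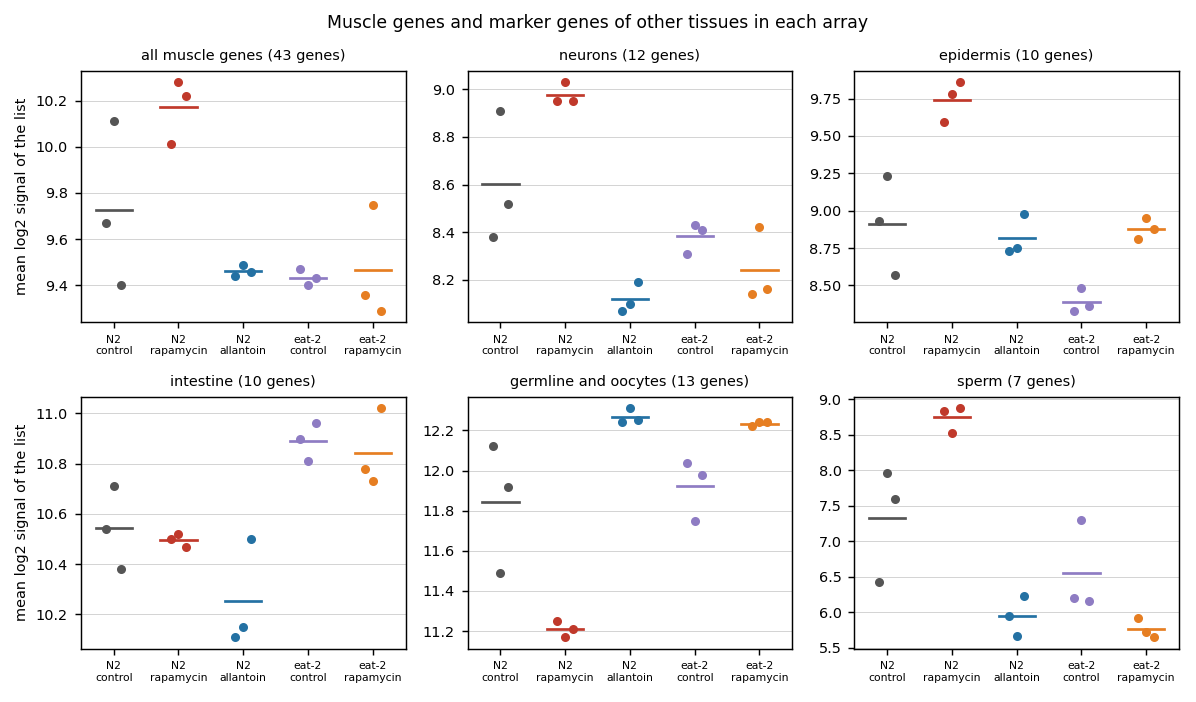
Mean log2 signal (y axis) of the 43 muscle genes and of the marker genes of neurons, epidermis, intestine, germline and oocytes, and sperm in each of the 15 arrays (points), by group (x axis), with the group mean as a bar. In rapamycin-treated N2 worms muscle, neuronal, epidermal and sperm genes are at their highest and germline genes at their lowest (11.17 to 11.25).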

How the data were processed

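The authors normalised the 15 arrays by RMA, run in Affymetrix Expression Console, and the deposited table holds a log2 signal for each of 22625 probe sets. The authors also used Transcriptome Analysis Console. Program versions and a genome build are not given in the sources used here. RMA subtracts background, quantile-normalises the arrays and summarises probes, so a shift shared by all genes is removed, and signals of different probes are not comparable between genes. The lowest and highest signals were 3.14 and 14.86, and the medians of the arrays lay between 6.79 and 7.05. The number of arrays limits the precision.

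The 77 control probe sets were left out. Of the 22548 others, the platform annotation named 1 gene for 20766, several for 887 and none for 895. Each comparison of 2 groups was fitted on its own 6 arrays, and the interaction on 12, with limma 3.58.1 in R 4.3.3 (lmFit and eBayes), with Benjamini-Hochberg adjustment over all probe sets.

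The members and lists were chosen with earlier results of these data known. Named in each comparison were the 6 called members with the largest changes in each direction, or the 3 most extreme where fewer than 3 were called, a set of 21 members in all groups, members whose probe sets disagreed in sign or by over 1, and other members by class.

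Alternatives were a single fit of all arrays, a replicate block, median centring, cyclic loess, array weights, no dim probe sets, the mean of a gene's probe sets, the study's threshold, and each array left out.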

Additional observations from a re-analysis of the deposited data

Results flagged for a closer look

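For 4 muscle genes the response to rapamycin differed between the strains by the test of the interaction, given as the response in eat-2 worms minus that in N2 worms. These were 4 of 43 genes, while 24.4% of all probe sets were called. The value was -1.57 for myo-3 (adjusted p = 0.0381, limma), whose responses were -0.93 in eat-2 and 0.64 in N2 worms. It was -0.76 for sca-1 (adjusted p = 0.0122), with responses of -0.58 and 0.19, and -0.61 for unc-98 (adjusted p = 0.0352), with responses of -0.11 and 0.49. It was 0.79 for unc-45 (adjusted p = 0.00939), with responses of 0.13 and -0.65. The other probe set of unc-45 gave only 0.14 for the interaction, and the probe sets of sca-1 ran from -0.763 to -0.144. The call of myo-3 was lost on leaving out N2 control 1 or 3, N2 rapamycin array 2 or 3, eat-2 control 1 or 3, or treated eat-2 array 1 or 3 (values from -1.34 to -1.55). The call of unc-98 was kept on leaving out N2 control 2, eat-2 control 3 or treated eat-2 array 2 and lost without each of the others, with median centring (adjusted p = 0.0707) and with cyclic loess (adjusted p = 0.0611). The calls of unc-45 and sca-1 were kept in these fits.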

How the results depend on the processing

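Whether replicate numbers pair the arrays could not be settled from the values. The correlation of same-numbered deviations was over 0.1 for every pair in none of the comparisons, and ran from -0.228 to 0.454. It was positive throughout for rapamycin against allantoin (0.144, 0.0583 and 0.148) and for the strains on rapamycin (0.177, 0.197 and 0.0346). For allantoin in N2 it was negative throughout, and the other comparisons of 2 groups had both signs. With the replicate block, 0 muscle genes were called for rapamycin in N2 (2 without it, and 0.692% of all probe sets with it) and 2 for rapamycin in eat-2 (5 without it, and 7.14% of all probe sets with it), and the counts of the other comparisons stayed within 1.5 times. A single fit of all arrays called 19, 6 and 3 genes for rapamycin in N2, allantoin in N2 and rapamycin in eat-2, beside 34.5%, 11.2% and 8.78% of all probe sets. Array weights called 18, 8 and 18, and 22 for the interaction, beside 30.4%, 11.8%, 28.8% and 37.1%. Median centring gave 8 for rapamycin in eat-2, beside 17.3% of all probe sets, and the mean of a gene's probe sets gave 1 for rapamycin in N2, beside 10.3% of genes. The study's threshold gave 6 for allantoin, 0 for rapamycin in eat-2, 15 for rapamycin against allantoin, 14 for the strains on rapamycin and 2 for the interaction, beside 4.05%, 3.06%, 20.4%, 18.7% and 13.7% of all probe sets. The cause of these shifts was not tested. Leaving out each array gave 0 to 18 for rapamycin in N2, 0 to 9 for allantoin, 0 to 1 for eat-2 against N2, 1 to 12 for rapamycin in eat-2, 32 to 34 for rapamycin against allantoin, 31 to 39 for the strains on rapamycin and 2 to 15 for the interaction. Signs turned only for named genes that were not called: tnt-2 on allantoin without N2 control 3 (-0.05, up to 0.79 without other arrays), tni-3 in eat-2 against N2 without N2 control 1 (-0.09, up to 0.29 without other arrays), pat-4 between the drugs with cyclic loess (0.10), tni-3 between the strains on rapamycin with cyclic loess (-0.16), array weights (-0.03), without N2 rapamycin array 1 (-0.01) or treated eat-2 array 2 (-0.12, up to 0.15 without other arrays), and in the interaction pat-3 with cyclic loess (-0.01) and tnt-2 with array weights (-0.26) or without N2 control 2 (-0.03, up to 0.80 without other arrays).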
